A study of Rattus norvegicus with 24 samples.

Results

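The 8 genes described here belong to the response of a cell to glucocorticoid hormones, and they were chosen by gene name: Nr3c1, Fkbp5, Tsc22d3, Sgk1, Zbtb16, Dusp1, Klf9 and Errfi1. Of these 8, 7 had a row under that name among the 32489 gene IDs of the deposited expression table, and all 7 passed the filter on low values that left 20856 genes for testing. Nr3c1, the gene of the glucocorticoid receptor, had no row of that name. The table's own description column calls 2 other rows glucocorticoid receptor, AABR07031756.1 (ENSRNOG00000014096) and AABR07031756.2 (ENSRNOG00000048800), and their values stand beside those of the 7 genes without being counted among them.

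RNA was sequenced from whole lung of male Wistar rats that were 5 to 6 weeks old and specific pathogen free. The rats received silica particles at 200 mg/mL, a mineral dust that inflames and scars the lung, or normal saline, through the trachea, and lungs were taken at day 14 or day 28. Each of the 4 groups (saline day 14, silica day 14, saline day 28 and silica day 28) held 6 lungs, labelled as biological replicates, so that the p-values measure the spread between these animals. The instillation itself was common to all groups, and no group without instillation was analysed here.

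Glucocorticoids (corticosterone in the rat) enter the cell and bind a receptor that waits in the cytoplasm on a complex of heat shock protein 90 and its co-chaperones. The bound receptor moves to the nucleus, raises the transcription of one set of genes and holds back inflammatory genes driven by NF-kB and AP-1. Release of the hormone follows the time of day and stress, and lung epithelium, macrophages and fibroblasts all carry the receptor. Of the genes described here, Fkbp5, Tsc22d3, Zbtb16, Dusp1, Klf9, Sgk1 and Errfi1 are known targets raised by the hormone. No hormone was measured, and the hour at which the lungs were taken is not given in the sources used here.

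Levels are FPKM (fragments per kilobase of gene model, scaled to library size), a scale that accounts for gene length. The depth recovered from the steps of the FPKM was 55.07 to 84.61 M reads (mega, as totals) per library. Lung markers were abundant in every group, with summed FPKM of the type 2 cell markers between 8919 and 19950 over the libraries. Saline day 28 libraries stood apart in mitochondrial RNA, which took 5.29% ± 2.14 (SD, n = 6) of the reads, against 2.50% ± 0.652 in saline day 14, 2.17% ± 0.200 in silica day 14 and 2.66% ± 0.686 in silica day 28. Its replicates 1, 2 and 6 held 8.58%, 5.28% and 6.91%, and its replicates 3, 4 and 5 held 4.31%, 2.68% and 3.99%. The highest library of the other groups held 4.01%, so that replicate 3 was also above all of those. Calls that rest on the saline day 28 group are therefore given with and without replicates 1, 2 and 6, the 3 highest. The summed level of 4 heart muscle markers also varied, from 12.2 to 1761 FPKM in silica day 28 and from 33.5 to 529 FPKM in saline day 14, and its part in any result was not tested.

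Promoter sequence was examined for the recognition sequence of the receptor and for the cAMP and clock elements that control several of these genes in other settings. RefSeq promoters on the rat build GRCr8, each reaching from 250 bases before to 50 bases after a transcription start, were found for 7 of the 8 genes, 12 promoters in all, with none for Zbtb16. The build differs from that of the expression values, so coordinates refer to GRCr8 alone. Shown are the promoters of Dusp1 (chr10:17184603-17184902, plus strand), Tsc22d3 (chrX:109009985-109010284, minus strand) and Fkbp5 (chr20:6543506-6543805, minus strand), because Dusp1 held the most matches and because Fkbp5 and Tsc22d3 were the genes that passed the test of silica against saline. Capitals mark the short cAMP site TGACG, the full element TGACGTCA and the E-box CACGTG, each searched on both strands.
Dusp1: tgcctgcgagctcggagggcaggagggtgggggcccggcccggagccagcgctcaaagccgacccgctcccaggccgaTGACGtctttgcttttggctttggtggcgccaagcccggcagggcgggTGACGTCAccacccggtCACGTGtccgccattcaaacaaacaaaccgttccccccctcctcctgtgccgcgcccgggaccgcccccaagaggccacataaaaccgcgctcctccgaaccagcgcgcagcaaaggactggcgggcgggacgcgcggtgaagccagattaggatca
Tsc22d3: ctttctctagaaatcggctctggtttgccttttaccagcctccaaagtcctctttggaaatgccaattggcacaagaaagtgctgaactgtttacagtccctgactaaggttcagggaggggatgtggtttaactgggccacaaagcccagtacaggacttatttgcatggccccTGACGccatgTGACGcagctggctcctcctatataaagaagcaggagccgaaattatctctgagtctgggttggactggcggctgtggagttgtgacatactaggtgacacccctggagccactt
Fkbp5: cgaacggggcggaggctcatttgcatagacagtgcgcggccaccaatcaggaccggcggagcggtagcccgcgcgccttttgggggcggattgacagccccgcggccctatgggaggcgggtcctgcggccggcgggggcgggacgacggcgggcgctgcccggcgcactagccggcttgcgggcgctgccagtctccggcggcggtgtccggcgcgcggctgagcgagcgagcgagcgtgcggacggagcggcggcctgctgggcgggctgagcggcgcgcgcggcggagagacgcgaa

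The Dusp1 promoter held the full cAMP element 124 bases before the start, an element that 1.83% of all 33469 rat promoters of that length carried. The same stretch counts again under the short site TGACG, which the Dusp1 promoter held 172, 124 and 121 bases before the start, the last 2 of them overlapping. An E-box, the sequence bound by the clock factors, lay 107 bases before the Dusp1 start and occurred in 6.42% of all promoters. The Tsc22d3 promoter shown held the short site 75 and 65 bases before its start, Klf9 held it at 79 bases and Errfi1 at 56 bases. These 4 promoters of 12 compare with 21.2% of all promoters. The glucocorticoid response element, searched as AGAACA, any 3 bases and TGTTCT, was found in none of the 12 promoters and in 0.0149% of all, and AGAACA by itself on either strand in none of the 12 and in 20.7% of all. These letters were absent from these windows only, and nothing follows from that about the receptor.

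Both gene models described as the receptor were well expressed. AABR07031756.1, the longer, lay at 58.1, 69.0 and 82.1 FPKM (lowest, median and highest) in saline day 14, at 56.2, 65.2 and 70.5 FPKM in silica day 14, at 45.1, 57.4 and 62.5 FPKM in saline day 28, and at 27.5, 64.1 and 72.1 FPKM in silica day 28. The groups overlapped at both days, with a log2 difference of -0.13 (SE 0.163) at day 14 and 0.03 (SE 0.163) at day 28, and neither passed (limma, Benjamini-Hochberg adjusted p = 0.703 and 0.907).

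The shorter model AABR07031756.2 behaved otherwise. It lay at 19.0, 29.9 and 39.8 FPKM in saline day 14, at 5.48, 19.9 and 31.5 FPKM in silica day 14, at 5.59, 11.7 and 15.6 FPKM in saline day 28 and at 21.7, 22.6 and 35.4 FPKM in silica day 28. At day 28 every silica lung was above every saline lung, while at day 14 the groups overlapped. Of all genes tested, 2.92% had no overlap of silica and saline at day 28, in either direction, and 5% at day 14. It rose with silica at day 28 by 1.195 on the log2 scale (SE 0.303, limma adjusted p = 0.0165) and fell from day 14 to day 28 in saline by 1.42 (SE 0.303, adjusted p = 0.0030). Neither call held without saline day 28 replicates 1, 2 and 6, at 0.83 (adjusted p = 0.348) and -1.05 (adjusted p = 0.109), and the rise with silica was also lost without saline day 28 replicate 1 alone, at 1.03 (adjusted p = 0.0508). The 2 models were both given on the FPKM scale, and how the reads of the receptor were divided between them was not tested.

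Fkbp5 encodes FKBP51, a co-chaperone that lowers the affinity of the receptor for its hormone and is itself raised by that hormone, which makes it a short feedback loop. Its level in saline was 8.81, 24.8 and 52.0 FPKM at day 14 and 18.9, 30.7 and 49.2 FPKM at day 28. In silica it was 11.3, 17.8 and 28.9 FPKM at day 14 and 8.43, 12.0 and 24.2 FPKM at day 28. At day 28, 5 of the 6 silica lungs lay below every saline lung and 1 reached into the saline range. At day 14 the silica lungs lay within the range of the saline lungs, which was wide. Over both days, 6 of the 12 saline lungs were above all 12 silica lungs.

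Silica lungs averaged 13.3 FPKM ± 5.83 (SD, n = 6) of Fkbp5 at day 28, against 31.4 ± 11.7 in saline, and Fkbp5 fell by 1.19 on the log2(FPKM + 1) scale (SE 0.366, limma adjusted p = 0.0355). At day 14 the means were 19.0 FPKM ± 7.13 and 29.5 ± 19.0, with a log2 difference of -0.42 (SE 0.366, adjusted p = 0.569). The difference between the silica effects at the 2 days was -0.77 (SE 0.518, adjusted p = 0.332), or -0.76 without saline day 28 replicates 1, 2 and 6 (adjusted p = 0.511), so that the call at one day and its absence at the other do not show unequal effects. Without saline day 28 replicates 1, 2 and 6 the log2 difference at day 28 was -1.17, but it did not pass (adjusted p = 0.312). The call was also lost on leaving out any single one of saline day 28 replicates 1, 2 and 3 or silica day 28 replicates 1, 2, 3, 5 and 6, with log2 differences from -1.22 to -1.04 and adjusted p from 0.0545 to 0.0978. The authors' deposited table lists Fkbp5 at day 28 with a log2 change of -1.19 and an FDR of 0.00339, and at day 14 with -0.63 and an FDR of 0.314.

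Tsc22d3 encodes GILZ, a small leucine zipper protein that binds NF-kB and AP-1 and is a mediator of the anti-inflammatory action of glucocorticoids. It was the most abundant of the 7 genes by median in saline day 14, at 197, 219 and 318 FPKM, and it lay at 191, 242 and 270 FPKM in saline day 28. In silica it was 91.3, 153 and 314 FPKM at day 14 and 70.8, 117 and 286 FPKM at day 28. All 12 saline lungs lay between 191 and 318 FPKM, while silica lungs spread from below the saline range to its upper end. At day 14, 4 of the 6 silica lungs lay below every saline lung of that day, and at day 28, 5 of the 6 did. Set against all 12 saline lungs of both days, 8 of the 12 silica lungs lay below every one.

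Tsc22d3 fell with silica at day 28 by 0.92 on the log2 scale (SE 0.304, limma adjusted p = 0.0453), with means of 140 FPKM ± 81.2 in silica and 236 ± 27.8 in saline (SD, n = 6). At day 14 the means were 176 FPKM ± 91.3 and 239 ± 49.4 and the log2 difference was -0.57 (SE 0.304, adjusted p = 0.296). The call at day 28 lay close to the threshold. It was lost without saline day 28 replicates 1, 2 and 6, at -0.85 (adjusted p = 0.385), and when each library was shifted to a common median, at -0.87 (adjusted p = 0.0572). It was also lost on leaving out any single one of saline day 14 replicates 1, 2, 3, 4 and 6, saline day 28 replicates 1, 2, 3 and 6, or silica day 28 replicates 1, 2, 3, 5 and 6, with adjusted p from 0.0512 to 0.0993. The authors' deposited table gives Tsc22d3 at day 28 a log2 change of -0.71 with an FDR of 0.103, which does not pass.

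Tsc22d3 spread more widely among silica lungs than among saline lungs. The SD of its log2(FPKM + 1) was 0.28 in saline day 14 and 0.18 in saline day 28, but 0.74 in silica day 14 and 0.76 in silica day 28. Of all genes tested, 95.7% and 94.91% had a smaller SD in the silica groups, against 70.26% and 21.73% in the saline groups. Klf9 was ordered in the same way, with SDs of 0.16 and 0.27 in saline and 0.55 and 0.51 in silica. No test of unequal spread was made.

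Zbtb16 encodes PLZF, a zinc finger transcription factor that several tissues switch on strongly under glucocorticoids and that also marks innate-like lymphocytes. It lay at 1.42, 27.1 and 71.1 FPKM in saline day 14, at 3.28, 6.76 and 17.0 FPKM in silica day 14, at 4.98, 35.4 and 56.7 FPKM in saline day 28 and at 1.75, 6.04 and 18.9 FPKM in silica day 28. No silica lung of either day exceeded 18.9 FPKM, while 8 of the 12 saline lungs did. The other 4 saline lungs lay between 1.42 and 4.98 FPKM, so the groups overlapped at both days.

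In saline day 14, Zbtb16 took separate low and high values. Replicates 1, 2 and 3 held 1.42, 2.54 and 3.68 FPKM, and replicates 4, 5 and 6 held 50.5, 59.1 and 71.1 FPKM, a 50.23-fold range from lowest to highest. Its SD on the log2 scale was 2.30 there, and 99.87% of the tested genes had a smaller one. Fkbp5 was ordered alike in these libraries, at 8.81, 15.3 and 16.0 FPKM in replicates 1, 2 and 3 and at 33.5, 51.3 and 52.0 FPKM in replicates 4, 5 and 6. The labels give no cage, hour or batch for these lungs, and what separates them was not tested.

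With this spread the test of Zbtb16 had little precision. The log2 difference of silica from saline was -2.03 at day 28 (SE 0.798, limma adjusted p = 0.0877) and -0.73 at day 14 (SE 0.798, adjusted p = 0.659). All 6 silica lungs at day 28 were below the saline median. Neither difference passed, and without the 3 mitochondria-rich saline libraries the value at day 28 was -2.38 (adjusted p = 0.332). The authors' deposited table lists Zbtb16 at day 28 with -1.998 and an FDR of 0.0114, and at day 14 with -1.82 and an FDR of 0.171.

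**Figure D1:**
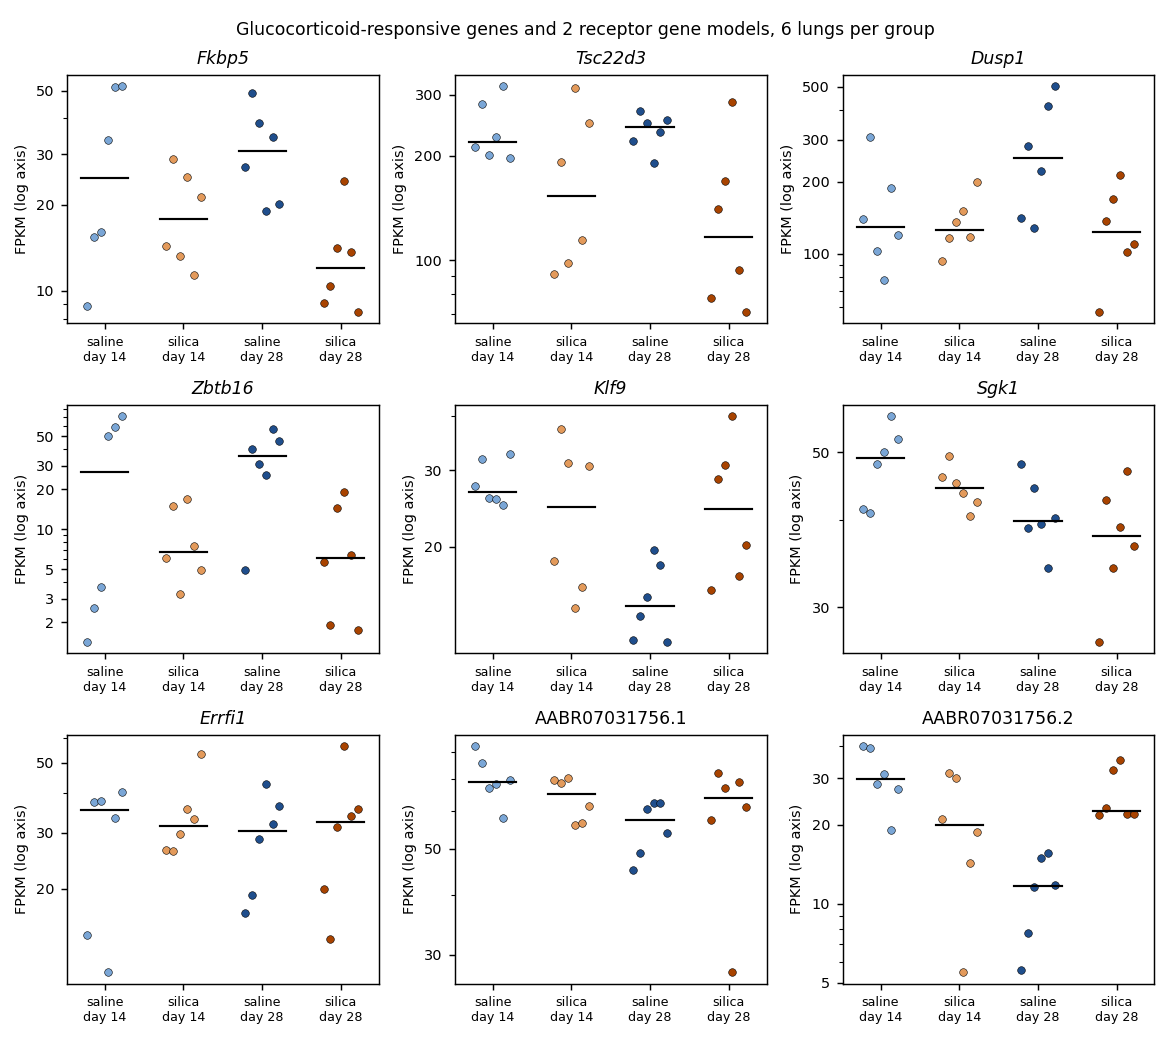
FPKM on a log axis of the 7 genes and of the 2 gene models described as the receptor, with 1 point per lung and a bar at the median of 6 lungs, by group. Zbtb16 lay between 1.42 and 71.1 FPKM in saline day 14 and at or below 18.9 FPKM in all 12 silica lungs, and Tsc22d3 lay between 191 and 318 FPKM in saline but reached down to 70.8 FPKM in silica.

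Dusp1 encodes a phosphatase that switches off the p38 and JNK kinases. It is raised by glucocorticoids and, within minutes of stress or growth factor signals, as an immediate early gene. It lay at 78.2, 130 and 309 FPKM in saline day 14, at 93.7, 126 and 200.3 FPKM in silica day 14, at 129, 252 and 503 FPKM in saline day 28 and at 57.3, 124 and 213 FPKM in silica day 28. The saline day 28 group was the high one, and at that day all 6 silica lungs were below its median and 3 were below every saline lung. The log2 difference at day 28 was -1.03 (SE 0.352), which missed the threshold (limma adjusted p = 0.0531), and at day 14 it was -0.10 (SE 0.352, adjusted p = 0.910).

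The value of Dusp1 at day 28 lay so near the threshold that single libraries decided it. It passed without saline day 14 replicate 2 (-1.03, adjusted p = 0.0421), without saline day 28 replicate 3 (-1.22, adjusted p = 0.0283) and without silica day 28 replicate 4 (-1.19, adjusted p = 0.0488). Without saline day 28 replicates 1, 2 and 6 it was -0.90 (adjusted p = 0.376). The saline lungs themselves had a log2 difference of 0.82 from day 14 to day 28 (SE 0.352, adjusted p = 0.0910), or 0.69 without those 3 libraries (adjusted p = 0.344). The authors' deposited table gives Dusp1 at day 28 a log2 change of -1.06 and an FDR of 0.0392.

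Klf9 encodes a Krüppel-like transcription factor raised by glucocorticoids and by thyroid hormone. Its level was 24.9, 26.7 and 32.8 FPKM in saline day 14, 14.5, 24.6 and 37.4 FPKM in silica day 14, 12.1, 14.6 and 19.7 FPKM in saline day 28 and 15.9, 24.4 and 40.0 FPKM in silica day 28. Saline day 28 was the low group, and every one of its lungs was below every saline lung of day 14. Of all genes tested, 8.46% had no overlap between these saline groups, in either direction. Klf9 fell from day 14 to day 28 in saline by 0.86 on the log2 scale (SE 0.223, limma adjusted p = 0.0086), and it was the only one of the 7 genes called in that comparison, in which 25.2% of all genes tested were called and 11.1% were called lower. The call held on leaving out each of the 24 libraries in turn but not without saline day 28 replicates 1, 2 and 6 together, at -0.64 (adjusted p = 0.196), where 1.73% of all genes were called.

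Silica lungs at day 28 stood at a log2 difference of 0.65 in Klf9 from their saline controls (SE 0.223), which missed the threshold (adjusted p = 0.0523), and 4 of the 6 were above every saline lung. At day 14 the difference was -0.26 (SE 0.223, adjusted p = 0.560), and the difference between the days was 0.91 (SE 0.315, adjusted p = 0.0641), or 0.69 without saline day 28 replicates 1, 2 and 6 (adjusted p = 0.305). The call at day 28 was again decided by single choices. With each library shifted to a common median it was 0.71 (adjusted p = 0.0406), and it also passed without any single one of saline day 28 replicates 4 and 5, silica day 14 replicates 2 and 4, or silica day 28 replicates 1 and 5, with adjusted p from 0.0314 to 0.0451. Without saline day 28 replicates 1, 2 and 6 it was 0.43 (adjusted p = 0.527). The authors' deposited table gives Klf9 at day 28 a log2 change of 0.78 and an FDR of 0.0172.

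Sgk1 encodes a kinase that keeps epithelial sodium channels at the cell surface and thereby helps to clear fluid from the airspace. Its SD of log2(FPKM + 1), between 0.097 and 0.28 by group, was the lowest of the 7 genes in every group but saline day 14, where that of Klf9 was lower. It lay at 40.9, 49.1 and 56.3 FPKM in saline day 14, 40.5, 44.4 and 49.4 FPKM in silica day 14, 34.1, 39.9 and 48.0 FPKM in saline day 28 and 26.7, 37.9 and 47.0 FPKM in silica day 28. The groups overlapped widely, with log2 differences of -0.10 (SE 0.109) at day 14 and -0.13 (SE 0.109) at day 28, neither of which passed (limma adjusted p = 0.645 and 0.451), and the value at day 28 was -0.0724 without saline day 28 replicates 1, 2 and 6.

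Errfi1 encodes MIG6, an inhibitor of the EGF receptor. It lay at 10.9, 35.5 and 40.4 FPKM in saline day 14, at 26.2, 31.5 and 53.3 FPKM in silica day 14, at 16.7, 30.3 and 42.7 FPKM in saline day 28 and at 13.9, 32.5 and 56.3 FPKM in silica day 28. All groups overlapped, and the log2 difference was 0.34 at day 14 (SE 0.331, limma adjusted p = 0.615) and 0.06 at day 28 (SE 0.331, adjusted p = 0.918). Without saline day 28 replicates 1, 2 and 6 the value at day 28 turned to -0.22.

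Counted over the 7 genes, silica against saline called 0 at day 14, where 4.37% of all genes tested were called, 2.7% higher and 1.66% lower. At day 28 it called 2, Fkbp5 and Tsc22d3, both lower, where 13.8% of all genes were called, 5.3% higher and 8.47% lower. Without saline day 28 replicates 1, 2 and 6 it called 0 of the 7 at day 28, and 0.288% of all genes. The difference between the 2 silica effects called 0 of the 7 and 9.93% of all genes, and day 28 against day 14 within silica called 0 of the 7 and 0.00479% of all genes, which is 1 gene. The 2 silica effects share no library, but each day 28 value shares its saline controls with the comparison of the saline groups.

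**Figure D2:**
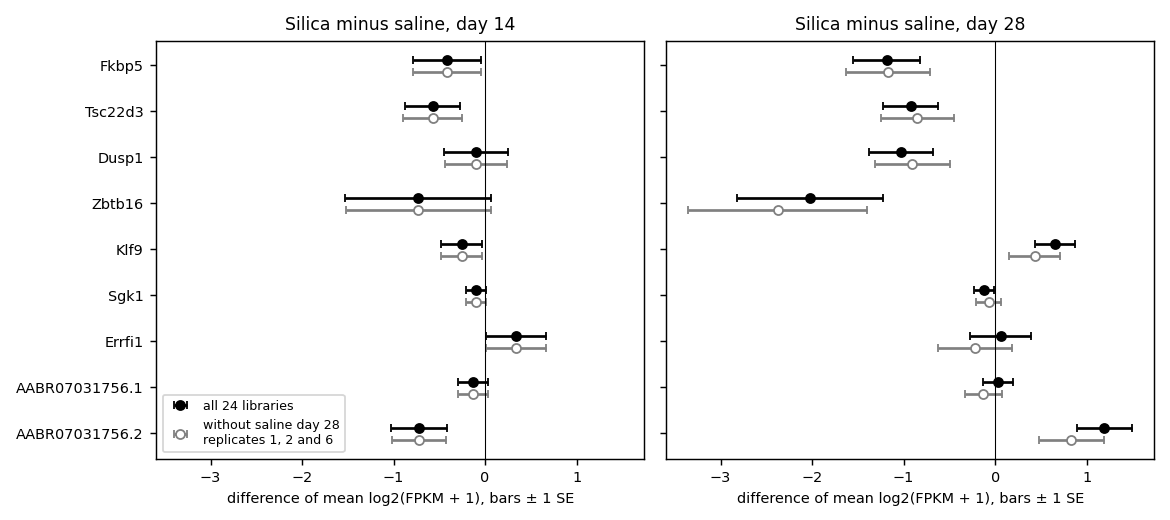
Log2 difference of silica from saline at day 14 and at day 28 for the 7 genes and the 2 receptor gene models, with bars of 1 SE from the limma fit on log2(FPKM + 1), from all 24 libraries (filled) and without saline day 28 replicates 1, 2 and 6 (open). With all libraries, at day 28 Fkbp5 at -1.19 and Tsc22d3 at -0.92 passed, and Zbtb16 at -2.03 had the widest bar.

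Cell type markers were read at the same days. At day 28, 2 of 3 club cell markers and 2 of 3 ciliated cell markers were called lower in silica. In type 1 cells and in macrophages 1 of 4 markers was called higher, and no marker of the other cell types was called. Of all genes tested, 8.47% were called lower and 5.3% higher at day 28. No marker was called at day 14, where 4.37% of all genes were. The summed FPKM of the ciliated cell markers was 30.4 to 134 in saline day 28 and 17.0 to 52.9 in silica day 28. Without saline day 28 replicates 1, 2 and 6 none of these markers was called at day 28, where 0.288% of all genes were. Scgb1a1 of the club cells was then at -0.88 (from -1.23) and Rsph1 of the ciliated cells at -0.89 (from -1.19). In that fit the ciliated marker Dnah9 was called lower at day 14 (-0.78, limma adjusted p = 0.0418). The markers' part in the values of the 7 genes was not tested. In whole lung, fewer cells of a type and less RNA per cell cannot be told apart.

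The 7 genes differed in how they varied together from lung to lung. After the group means were removed, 21 pairs were correlated over 24 libraries, with p-values from 100000 permutations within groups and Benjamini-Hochberg adjustment over the 21. Of these, 19 had a positive Pearson r and 3 passed: Fkbp5 with Zbtb16, Tsc22d3 with Dusp1, and Fkbp5 with Tsc22d3. All libraries share the whole-lung mixture of cells and the FPKM scale. The share of pairs of other genes that are positive or pass was not computed. Whether these counts are particular to the 7 genes was therefore not tested.

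Fkbp5 and Zbtb16 had r = 0.80 (permutation p = 5.4e-04, adjusted p = 0.0103, Spearman's rho = 0.77) and were on the same side of their group means in 22 of 24 libraries. Without the 2 libraries farthest from the median of Fkbp5, r was 0.71. In each pair these 2 libraries were chosen by the first gene named, so that extremes of the second gene could stay in. Because Zbtb16 lay in separate clusters in saline day 14, the relation was also computed over the other 18 libraries, where r was 0.56 (permutation p = 0.0240) and did not pass (adjusted p = 0.126). Within groups r was 0.97 in saline day 14, 0.69 in silica day 14, 0.20 in saline day 28 and 0.84 in silica day 28.

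Fkbp5 and Tsc22d3 had r = 0.53 over 24 libraries (permutation p = 0.00194, adjusted p = 0.0136, rho = 0.52) and 0.66 without the 2 farthest libraries. Over the 18 libraries without saline day 14, r was 0.75 (permutation p = 7.1e-04, adjusted p = 0.0149). Within groups it was 0.23 in saline day 14, 0.83 in silica day 14, 0.67 in saline day 28 and 0.88 in silica day 28.

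Tsc22d3 and Dusp1 had r = 0.55 (permutation p = 9.8e-04, adjusted p = 0.0103, rho = 0.60), the same side of the group means in 20 of 24 libraries, and r = 0.51 without the 2 farthest. Within groups it was 0.70 in saline day 14, 0.69 in silica day 14, 0.27 in saline day 28 and 0.85 in silica day 28, and over 18 libraries without saline day 14 it was 0.55 (adjusted p = 0.0460). None of the 84 values within single groups of 6 passed adjustment over the 84. Whether r differed between groups was not tested.

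**Figure D3:**
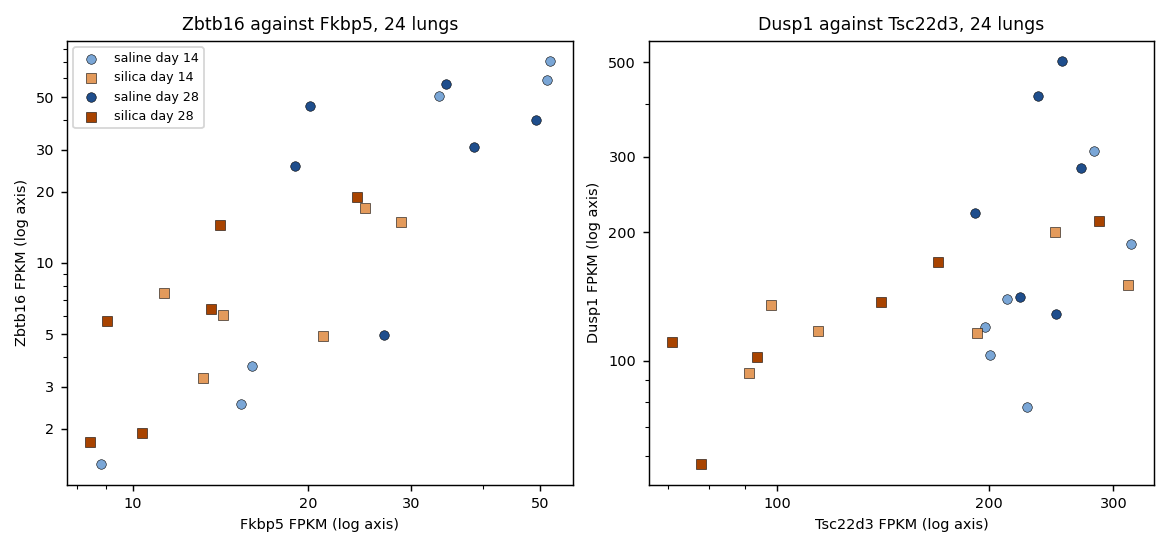
FPKM of Zbtb16 against Fkbp5 and of Dusp1 against Tsc22d3, on log axes, with 1 point per lung and the group by colour and shape. Saline day 14 holds 3 lungs with Zbtb16 at or below 3.68 FPKM and 3 at or above 50.5 FPKM, and Tsc22d3 below 100 FPKM is seen in silica lungs alone.

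**Figure D4:**
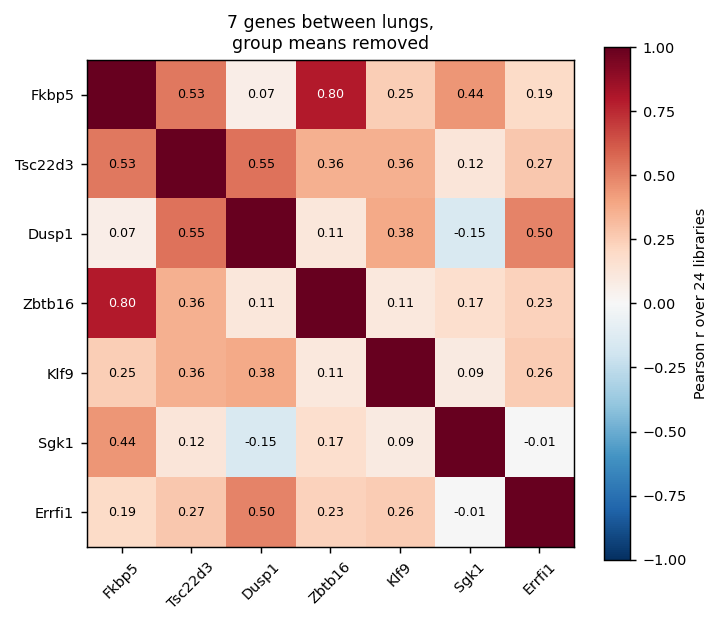
Pearson r of log2(FPKM + 1) after removal of group means, over 24 libraries, for each of the 21 pairs of the 7 genes. The highest value is 0.80 for Fkbp5 with Zbtb16, and 19 of 21 values are positive.

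The genes of the table most like each of the 7 were found by the same correlation within groups over 24 libraries, 2 for each, with provisional names left out. Fkbp5 was nearest to Map3k6 (r = 0.78) and Cd2bp2 (0.76). Tsc22d3 was nearest to Nfkbia (0.81), the inhibitor of NF-kB, and Tmem252 (0.80). Dusp1 was nearest to Edn1 (0.92), the gene of endothelin 1, and Zfp36 (0.86), which encodes a protein that speeds decay of cytokine mRNA. Zbtb16 was nearest to Lims2 (0.73) and Tmem169 (0.72). Klf9 was nearest to Dock1 (0.89) and Phex (0.88), Sgk1 to Gpat4 (0.76) and Glp1r (0.75), and Errfi1 to Gzmbl2 (0.66) and Arl6ip4 (0.66). The receptor model AABR07031756.1 was nearest to Tead1 (0.84), and AABR07031756.2 to Cpd (0.96) and Casd1 (0.96), with 427 genes at an r of at least 0.8, against 49 for Klf9 and 6 for Dusp1. These values describe the highest of many correlations and carry no test.

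Other genes of the pathway were read from lists chosen with earlier results of these data known. Among 10 genes of the receptor complex and its chaperones, Hsp90aa1, the inducible form of heat shock protein 90, fell with silica at day 14 by 0.56 on the log2 scale (SE 0.142, limma adjusted p = 0.0240), from 177 FPKM ± 20.01 to 119 ± 11.8 (SD, n = 6). No other member was called at day 14 and none at day 28, where 4.37% and 13.8% of all genes tested were called. Stip1 had -0.36 at day 14 (adjusted p = 0.0805), which was called without saline day 28 replicates 1, 2 and 6 (adjusted p = 0.0276). The median log2 difference of the list was -0.23 at day 14 and 0.14 at day 28, beside 0.00 and -0.03 for all genes tested. The co-chaperone Fkbp4, which favours hormone binding, had -0.24 and 0.23, and neither passed.

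The enzymes that set the hormone level inside a cell were called on one day each. The share of all genes tested that was called was 4.37% at day 14 and 13.8% at day 28. Hsd11b2, which inactivates corticosterone, fell with silica at day 14 by 0.62 (SE 0.160, adjusted p = 0.0264), from 5.05 FPKM ± 0.770 to 2.99 ± 0.877. Hsd11b1, which regenerates the hormone in its active form, rose at day 28 by 0.69 (SE 0.184, adjusted p = 0.0206), from 86.7 FPKM ± 26.8 in saline to 136 ± 22.9 in silica. H6pd, which supplies Hsd11b1 with its cofactor, rose at day 28 by 0.52 (SE 0.166, adjusted p = 0.0384), from 7.23 FPKM ± 1.70 to 10.9 ± 2.70. Saline lungs had higher levels of both at day 14, at 156 FPKM ± 18.9 for Hsd11b1 and 11.8 ± 2.17 for H6pd. Neither day 28 call held without saline day 28 replicates 1, 2 and 6, with Hsd11b1 at 0.30 (adjusted p = 0.508) and H6pd, about as before, at 0.52 (adjusted p = 0.295).

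Among 8 coregulators tested, none was called at day 14 and 1 at day 28. Of all genes tested, 4.37% and 13.8% were called at these days. The called gene was Ncoa2, a coactivator that the receptor also uses in repression. It rose at day 28 by 0.70 (SE 0.178, limma adjusted p = 0.0169). Without the 3 libraries Ncoa2 stood at 0.54 and did not pass (adjusted p = 0.274), and 0.288% of all genes were called at day 28. In that fit Ncoa3 was called lower at day 14 (-0.34, limma adjusted p = 0.02365). The median of the list was -0.34 at day 14 and 0.25 at day 28, beside -0.0023 and -0.029 for all genes tested.

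The 29 tested genes of a longer list of hormone-raised genes did not move as one. At day 14, 3 were called higher and 1 lower, and at day 28, 3 higher and 2 lower, with a median log2 difference of 0.12 and -0.02. Of all genes tested, 4.37% were called at day 14 and 13.8% at day 28. Angptl4, an inhibitor of lipoprotein lipase, rose at both days, by 1.25 at day 14 (SE 0.220, limma adjusted p = 0.0012) and by 1.38 at day 28 (SE 0.220, adjusted p = 0.0013), from means of 2.19 and 1.94 FPKM in saline to 6.71 and 6.90 in silica. At day 14 Arrdc2 also rose, by 0.84, and Gadd45b by 0.52, while Cdkn1a, the p21 inhibitor of the cell cycle, fell by 0.68. At day 28 Cited2 rose by 0.33 and Crispld2 by 0.57, while Zfp36 fell by 1.07 and Cdkn1c by 0.67. All 5 calls of day 28 were lost without saline day 28 replicates 1, 2 and 6, where 0.288% of all genes were called. The log2 difference of Angptl4 was then 1.23 (adjusted p = 0.065), that of Crispld2 0.51, that of Zfp36 -0.84, that of Cdkn1c -0.41 and that of Cited2 0.16.

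Of 10 inflammatory genes that glucocorticoids hold down, 8 were tested and none was called at either day. The share of all genes tested that was called was 4.37% at day 14 and 13.8% at day 28. Ccl2, a monocyte chemokine, had -1.24 at day 14 and 0.64 at day 28, and Cxcl1, a neutrophil chemokine, had -0.52 and -0.57. Without saline day 28 replicates 1, 2 and 6 the day 28 values were 0.0161 for Ccl2 and -0.37 for Cxcl1. Ccl2 ranged from 2.80 to 29.1 FPKM within saline day 14 alone.

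Clock genes, which keep daily time in the cell and among which Per1 stands on both lists, were read beside the 7. Of 14 tested, 4 were called higher and 1 lower at day 14, where 2.7% of all genes tested were called higher and 1.66% lower. Dbp, a clock output factor, rose by 2.42 on the log2 scale (SE 0.297), from 5.01 FPKM ± 1.31 to 36.5 ± 28.1, and Nr1d1, a repressor of the clock, rose by 2.20 (SE 0.223), from 9.06 FPKM ± 2.30 to 46.8 ± 19.0. Nr1d2 rose by 1.51 and Per3 by 1.08, and Cry1 fell by 0.81. At day 28 Nr1d2 rose by 0.98 and Nr1d1 by 0.73, while Per2, which is also raised by glucocorticoids, fell by 0.85, where 13.8% of all genes tested were called. These 3 calls were lost without saline day 28 replicates 1, 2 and 6, where 0.288% of all genes were called, with Nr1d2 at 0.90, Nr1d1 at 0.71 and Per2 at -0.50. Per1, another direct target of the receptor, had -0.88 and -0.76 and did not pass. The part of the clock genes in the values of the 7 was not tested.

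Immediate early genes, the class to which Dusp1 also belongs, numbered 10. None was called at day 14, where 4.37% of all genes tested were called. At day 28, 5 of the 10 were called lower in silica and none higher, where 8.47% of all genes tested were called lower. Fos fell by 1.96 on the log2 scale (SE 0.406, limma adjusted p = 0.0077), from 23.1 FPKM ± 9.27 in saline to 4.92 ± 1.44 in silica, and Junb fell by 0.94 (SE 0.189, adjusted p = 0.0068), from 113 FPKM ± 29.9 to 57.4 ± 10.5. Egr1 fell by 1.55, Nr4a1 by 1.06 and Jun by 0.63. The median of the list was -1.04 at day 28 and -0.22 at day 14. None of the 10 was called without saline day 28 replicates 1, 2 and 6, where 0.288% of all genes were, and the median was -1.02, with Fos at -1.95 and Junb at -0.92. Saline lungs of day 14 had 11 FPKM ± 6.34 of Fos, so that the high group was saline at day 28.

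**Figure D5:**
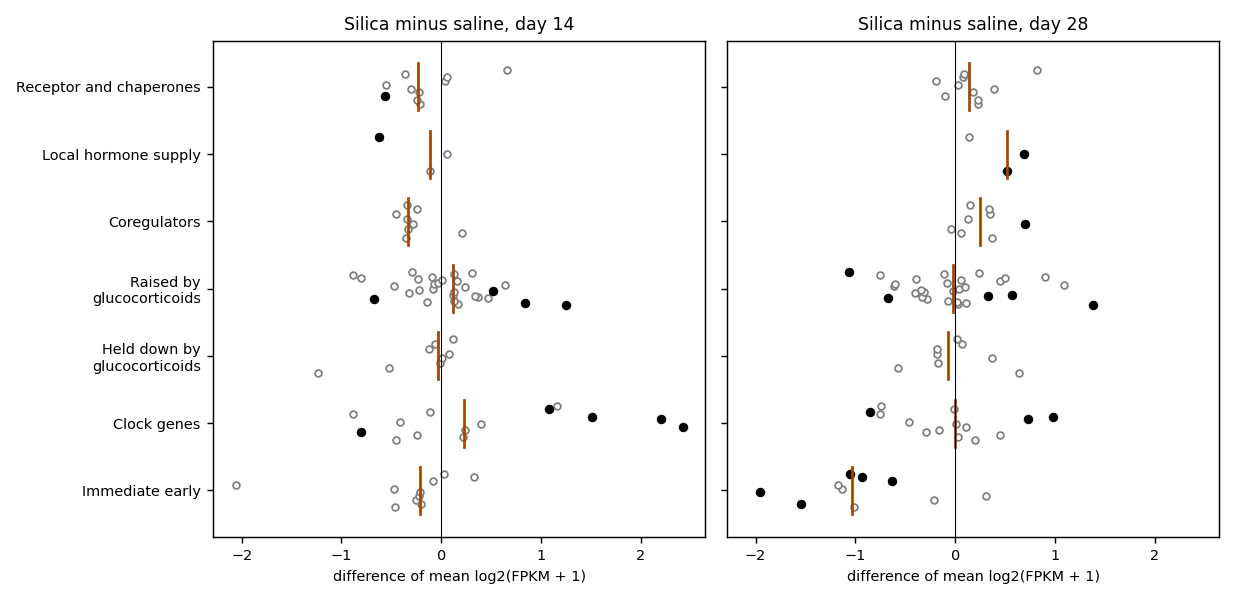
Log2 difference of silica from saline at day 14 and day 28 for every tested gene of the 7 lists of pathway, clock and immediate early genes, with 1 point per gene, a vertical bar at the list's median and filled points for genes called at an adjusted p under 0.05. The immediate early genes lie lowest at day 28, with a median of -1.04, and the clock genes reach highest at day 14, with Dbp at 2.42.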

How the data were processed

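Poly-A RNA of 24 rat lungs was sequenced. The authors deposited FPKM per gene, and the submitters' processing notes name HISAT2 2.1.0, HTSeq 0.9.1, cutadapt 4.0 and FastQC 0.11.9 with the builds Rnor_6.0 and rn6, but no order of steps. The authors' deposited table of comparisons holds log2 fold changes, linear ratios, p-values and FDRs, made with a tool not given in the sources used here.

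FPKM moved in steps from which whole reads were recovered for 100.0% of 31521 nonzero genes (tolerance 0.02 read or 2e-07 of the reads). These reads gave the depth and the mitochondrial percent. Levels were compared as log2(FPKM + 1), so that changes of low genes are understated. The 20856 genes at 0.5 FPKM or more in at least 6 libraries entered a two-sided limma-trend fit (R 4.3.3, limma 3.58.1) with 4 group means, 5 contrasts and no covariate. The threshold for a call was an adjusted p of 0.05, by Benjamini-Hochberg over all genes tested. The fit was also run on simulated reads, drawn for each gene on its own with 1 spread for all groups. These held no mitochondrial shift in saline day 28, so the run does not show how that shift acts on the calls. Correlations, promoter matches and figures used Python 3.11.15 with scipy 1.17.1, matplotlib 3.10.9, pandas 2.3.3 and numpy 2.4.6.

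The 8 genes, the gene lists and the alternatives were chosen with earlier results of these data known. The text names the members and the receptor models, and of each list up to 4 genes with the smallest p. Called genes beyond these (Cdkn1a, Cited2, Crispld2, Cdkn1c, Cry1, Per2 and Egr1), as well as Per1, were named after their values were seen. The pairs had been planned over 8 genes, and 21 remained with 7. Alternatives were a pseudocount of 0.1, no filter, only the groups compared, libraries shifted to a common median, mitochondrial percent as a covariate, leaving out saline day 28 replicates 1, 2 and 6 or each library in turn, the replicate number as a block, a threshold of 0.01, limma-voom on the recovered reads, and pairs without saline day 14. The last 2 were added after the data had been seen.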

Additional observations from a re-analysis of the deposited data

Results flagged for a closer look

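Single lungs stood apart from the other 5 of their group in 3 of the 36 sets of values examined (7 genes and 2 receptor gene models in 4 groups), by the gap to the nearest lung as a share of the group's range, and chance gives such a gap in about 1 group of 20. Fkbp5 in silica day 28 replicate 4 was highest at 24.21 FPKM, with the next lung at 14.1. Errfi1 in silica day 14 replicate 6 was highest at 53.28 FPKM, with the next at 35.68. AABR07031756.1 in silica day 28 replicate 4 was lowest at 27.55 FPKM, with the next at 57.61.

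The silica effect on AABR07031756.2, the shorter gene model described as the receptor, differed between the days by 1.918 on the log2 scale (SE 0.428, limma adjusted p = 0.0139), from -0.72 at day 14 to 1.195 at day 28. The difference did not pass without saline day 28 replicates 1, 2 and 6, at 1.55 (adjusted p = 0.107). Over the alternatives other than leaving out 1 library the adjusted p lay between 0.0139 and 0.147.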

How the results depend on the processing

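The 2 calls among the 7 genes at day 28 depended on the processing. The number of the 7 genes called was 1 with only the groups compared or with limma-voom on recovered reads, and 0 with no filter on low values, with mitochondrial percent as a covariate, without saline day 28 replicates 1, 2 and 6, or at an adjusted p under 0.01. With libraries shifted to a common median it was 2, with Klf9 called higher in place of Tsc22d3. It lay between 0 and 3 on leaving out each library, with Klf9 or Dusp1 called in some of these. Over the settings other than leaving out 1 library, the log2 difference of Fkbp5 lay between -1.26 and -1.13, with adjusted p from 0.0355 to 0.419, and that of Tsc22d3 between -0.93 and -0.85, with adjusted p from 0.0453 to 0.430. On leaving out each library, Fkbp5 lay between -1.37 and -1.04 (adjusted p from 0.0244 to 0.0978) and Tsc22d3 between -1.17 and -0.77 (adjusted p from 0.0234 to 0.0993). With the replicate block the count was 2, and the block changed no call. Same-numbered lungs of different groups did not deviate together (mean r = -0.0234 over 36 pairs of libraries, 3 of them over 0.1), so the numbers were not taken as pairs.

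The 1 call between the saline days became 0 with mitochondrial percent as a covariate and without the 3 libraries, and lay between 1 and 2 on leaving out each library. The difference of the silica effects gave 0 to 1 calls. Day 14, and day 28 against day 14 in silica, gave 0 calls under every setting run.

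Values near 0 changed sign. With mitochondrial percent as a covariate these were Tsc22d3 between the saline days (0.0055), the difference of the silica effects on Sgk1 (0.0228), and at day 28 Errfi1 (-0.30) and AABR07031756.1 (-0.15). Without the 3 libraries Sgk1 was 0.0311, Errfi1 -0.22 and AABR07031756.1 -0.13, and with libraries shifted to a common median Sgk1 was 0.0012. On leaving out each library, Tsc22d3 between the saline days lay between -0.0538 and 0.0839, Dusp1 at day 14 between -0.27 and 0.13 and between the silica days between -0.28 and 0.10, Klf9 between the silica days between -0.0894 and 0.18, and the difference for Sgk1 between -0.0893 and 0.0689. Errfi1 lay between -0.13 and 0.26 at day 28, between -0.14 and 0.23 between the saline days and between -0.37 and 0.0184 between the silica days. AABR07031756.1 lay between -0.035 and 0.24 at day 28 and between -0.24 and 0.0339 between the silica days. The cause of these changes was not tested.

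The count of 3 pairs of genes that passed was 3 with a pseudocount of 0.1 and without the 3 libraries, and 2 without saline day 14, where Fkbp5 with Zbtb16 did not pass. The count test planned on edgeR was not run, because the files hold FPKM.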
